A study of Homo sapiens with 17 samples.

Results

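The HOX genes of the 4 human HOX clusters were taken by symbol, as every gene row named HOX, a cluster letter from A to D and a number, which gave 39 of the 62754 genes in the tables. The HOXA cluster held 11 of them (GRCh38, chromosome 7, minus strand), HOXB 10 (chr17:48528526-48728750, minus strand), HOXC 9 (chr12:53938831-54056030, plus strand) and HOXD 9 (chr2:176092721-176190907, plus strand). No measured value entered this choice. All libraries came from IMR90 ER:RAS cells, a human fetal lung fibroblast line that a retrovirus had made to express RASG12V joined to an oestrogen receptor domain. In such cells 4-hydroxytamoxifen (4OHT) turns on the oncogene and the cells become senescent. The groups were DMSO siNT (vehicle, n = 5), 4OHT siNT (oncogene on, n = 6) and 4OHT siSMARCA4 (oncogene on, n = 6). The siNT groups had non-targeting siRNA. The last group had siRNA against SMARCA4, which encodes an ATPase of SWI/SNF chromatin remodellers. The siRNAs were given 1 day before DMSO or 4OHT, and RNA was taken on day 7. Every group thus carried the ER:RAS construct and a transfected siRNA, and no group joined DMSO with siSMARCA4, so the knockdown was measured in the presence of 4OHT only.

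HOX genes encode homeodomain transcription factors that give cells their position along the body axis. Within a cluster they lie in the order in which they act from head to tail, with low numbers toward the head, and genes of the same number in different clusters (paralogs) descend from a common ancestor. Fibroblasts in culture keep the HOX pattern of the site they came from, and Polycomb and Trithorax complexes hold the silent and the active genes of a cluster in their states.

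Library totals ranged from 39.1 to 68.98 M counts (M, 1e6). The labels gave each library an siRNA number, 2 or 4, and a tag ending in V or VM whose meaning they do not state. The number stood after siNT or after siSMARCA4, so the same number names different siRNAs in the siNT and knockdown groups. VM tags were on 3 of 5 DMSO siNT libraries, on all 6 in 4OHT siNT and on 3 of 6 in 4OHT siSMARCA4. Tag and siRNA number were partly tied. The V libraries of DMSO siNT, 2-1V and 2-2V, had siRNA number 2, so all siNT libraries of number 4 were VM. In 4OHT siSMARCA4 the V libraries were 2-3V, 4-2V and 4-3V, and the VM libraries were 2-1VM, 2-3VM and 4-2VM. SMARCA4 itself was at 198 ± 19.2 CPM (counts per 1e6 counts, scaled by TMM; SD, n = 5) in DMSO siNT, 268 ± 13.2 (n = 6) in 4OHT siNT and 88.1 ± 22.8 (n = 6) in 4OHT siSMARCA4, with no overlap between the last 2 groups (log2 fold change -1.61, adjusted p 5.14e-07 by edgeR). All 10 fibroblast markers examined were at 1 CPM or more in every library, but their summed level moved with the groups, from 23070 to 27770 CPM in DMSO siNT to 13580 to 17700 in 4OHT siNT and 7655 to 11020 in 4OHT siSMARCA4. COL1A1 (means of 10770, 6294 and 2293 CPM) and COL1A2 (6533, 2043 and 728) weighed most in this sum. At an adjusted p under 0.05 by edgeR, they, COL3A1, DCN, LUM, PDGFRB and THY1 were lower with 4OHT and again with the knockdown. VIM and PDGFRA changed in neither comparison, and FAP was higher with 4OHT (log2 fold change 0.52). Of the lung mesenchyme markers, TBX2, TBX5 and FOXF1 were present in every library. TBX4 was at 0.319 to 1.42 CPM in DMSO siNT, 0.0523 to 0.145 in 4OHT siNT and 0.0732 to 0.221 in 4OHT siSMARCA4. With 4OHT, TBX5 was lower (log2 fold change -1.14, adjusted p 1.11e-08 by edgeR) and FOXF1 higher (0.65, 7.3e-06), and TBX2 was at -0.11 (0.334). The airway factor NKX2-1 was at 0 in every library and leukocyte markers summed to 0.155 to 0.520 CPM. Endothelial markers summed to 0.856 to 1.96 CPM in DMSO siNT, 3.95 to 5.94 in 4OHT siNT and 2.05 to 4.46 in 4OHT siSMARCA4, and epithelial markers, of which KRT18 and KRT19 made up most, to 82.5 to 119.6, 53.9 to 71.3 and 26.8 to 47.2 CPM. The part of these shifts in the HOX values was not tested. In such bulk samples, fewer cells of a type and less RNA per cell cannot be told apart. The labels do not say that the libraries came from separate cultures, so p-values measure the spread between these libraries, which may be technical.

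The sequences before the start of some HOX genes are shown to compare their base content. RefSeq promoters (GRCh38.p14) were at hand for 20 of the 39 genes, 6 of them among the genes with enough counts to test and 14 not. The following stretches, 5′ to 3′ on the strand of the gene and with CG dinucleotides in capitals, end at the start of the gene or, for HOXA2, HOXA4 and HOXA7, at the first annotated exon base before it. HOXA2 (chr7:27102687-27102933), HOXA4 (chr7:27130781-27131007), HOXA6 (chr7:27147775-27148024) and HOXA7 (chr7:27156755-27156925) are shown because they lie in the HOXA stretch that had enough counts to test. HOXA3 lies there as well and is not shown. Its window at the start of the gene had 11 CG and a G+C share of 48.8%. HOXA2, HOXA4 and HOXA7 were lower with 4OHT, whereas the direction of HOXA6 was fixed by the filter on low counts. HOXA13 (chr7:27200092-27200341) and HOXD13 (chr2:176092471-176092720) are shown because they had 0 and 3 counts over all libraries.
HOXA2: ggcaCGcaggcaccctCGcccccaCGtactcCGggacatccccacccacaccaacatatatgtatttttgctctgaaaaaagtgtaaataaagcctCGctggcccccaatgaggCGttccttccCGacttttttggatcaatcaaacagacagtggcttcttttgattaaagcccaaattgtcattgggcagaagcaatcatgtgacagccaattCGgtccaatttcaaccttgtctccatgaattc
HOXA4: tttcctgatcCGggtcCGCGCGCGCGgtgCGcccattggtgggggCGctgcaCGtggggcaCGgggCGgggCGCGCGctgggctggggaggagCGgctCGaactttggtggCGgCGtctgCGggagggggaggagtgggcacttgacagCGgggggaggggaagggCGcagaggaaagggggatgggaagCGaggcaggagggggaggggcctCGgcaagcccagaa
HOXA6: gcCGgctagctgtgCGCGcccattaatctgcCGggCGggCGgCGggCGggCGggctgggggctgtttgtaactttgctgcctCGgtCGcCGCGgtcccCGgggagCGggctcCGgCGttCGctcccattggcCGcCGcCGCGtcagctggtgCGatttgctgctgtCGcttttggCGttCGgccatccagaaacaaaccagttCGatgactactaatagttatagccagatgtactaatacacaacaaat
HOXA7: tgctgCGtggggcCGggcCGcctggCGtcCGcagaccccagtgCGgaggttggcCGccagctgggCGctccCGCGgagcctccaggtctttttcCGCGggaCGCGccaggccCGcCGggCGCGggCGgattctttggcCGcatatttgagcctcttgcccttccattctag
HOXA13: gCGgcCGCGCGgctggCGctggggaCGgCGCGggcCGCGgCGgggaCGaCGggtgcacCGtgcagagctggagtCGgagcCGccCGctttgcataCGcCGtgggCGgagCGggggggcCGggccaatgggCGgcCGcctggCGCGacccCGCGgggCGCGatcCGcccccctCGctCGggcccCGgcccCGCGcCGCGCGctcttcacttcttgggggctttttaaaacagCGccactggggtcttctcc
HOXD13: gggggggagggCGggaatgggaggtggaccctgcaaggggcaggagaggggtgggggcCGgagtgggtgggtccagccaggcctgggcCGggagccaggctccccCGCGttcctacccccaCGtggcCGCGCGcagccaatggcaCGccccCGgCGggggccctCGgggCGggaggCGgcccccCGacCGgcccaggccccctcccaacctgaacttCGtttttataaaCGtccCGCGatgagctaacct
In the full 250 bases before the start, HOXA2 had 8 CG and a G+C share of 47.2%, whereas HOXA4 had 26 and 70.0%, HOXA6 27 and 62.0%, HOXA7 28 and 70.8%, HOXA13 40 and 78.0%, and HOXD13 21 and 74.0%. Over all 35116 promoters the median was 11 CG, with quartiles of 3 and 23. The 12 promoters of tested HOX genes, 7 of them of HOXA3, had a median of 13.5 CG and a range of 0 to 28, and the 15 of the genes not tested had a median of 21 and a range of 4 to 40. A high CG count was thus present at promoters with and without transcripts. Motifs were searched on both strands of the same 250 bases, without regard to overlaps with each other. TATAAA was found in 8.33% of the 12 and 26.7% of the 15, against 10.7% of all promoters. These shares rest on few windows, of HOXA3 in the first set and of HOXA9, HOXD13 and each window of HOXA10 in the second. No test was made on shares of motifs. HOXC4 and HOXC5 have the same window, which is counted in each set. TGANTCA, the AP-1 motif, was in none of the 27, against 6.57%, and TGATNNAT, a motif of HOX with PBX proteins, was found before HOXA2, HOXD11 and HOXB1, against 6.47%.

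Levels between genes were compared as CPM per kb of exon. The HOXB genes led in every group (the plot of levels by cluster and paralog number). In DMSO siNT the highest was HOXB5 at 41.8 ± 5.27 CPM per kb (SD, n = 5), followed by HOXB2 at 26.8 ± 5.40, HOXB6 at 21.2 ± 4.68, HOXB7 at 13.7 ± 3.96, HOXA5 at 11.2 ± 2.24, HOXB4 at 9.10 ± 0.402 and HOXB3 at 8.83 ± 0.941. Neighbours in this order from HOXB2 on lay within their summed SD, whereas HOXB5 stood above HOXB2. In 4OHT siNT the same 4 genes, HOXB5 (52.5 ± 5.59, n = 6), HOXB2 (34.0 ± 3.88), HOXB6 (26.4 ± 1.77) and HOXB7 (13.5 ± 2.12), came first and HOXB3 (5.21 ± 0.596), HOXB4 (4.06 ± 0.227) and HOXA5 (4.05 ± 0.381) followed. HOXB6 shares 16.6% of its exon bases with HOXB3 on the same strand, so reads there may be split between them.

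**Figure D1:**
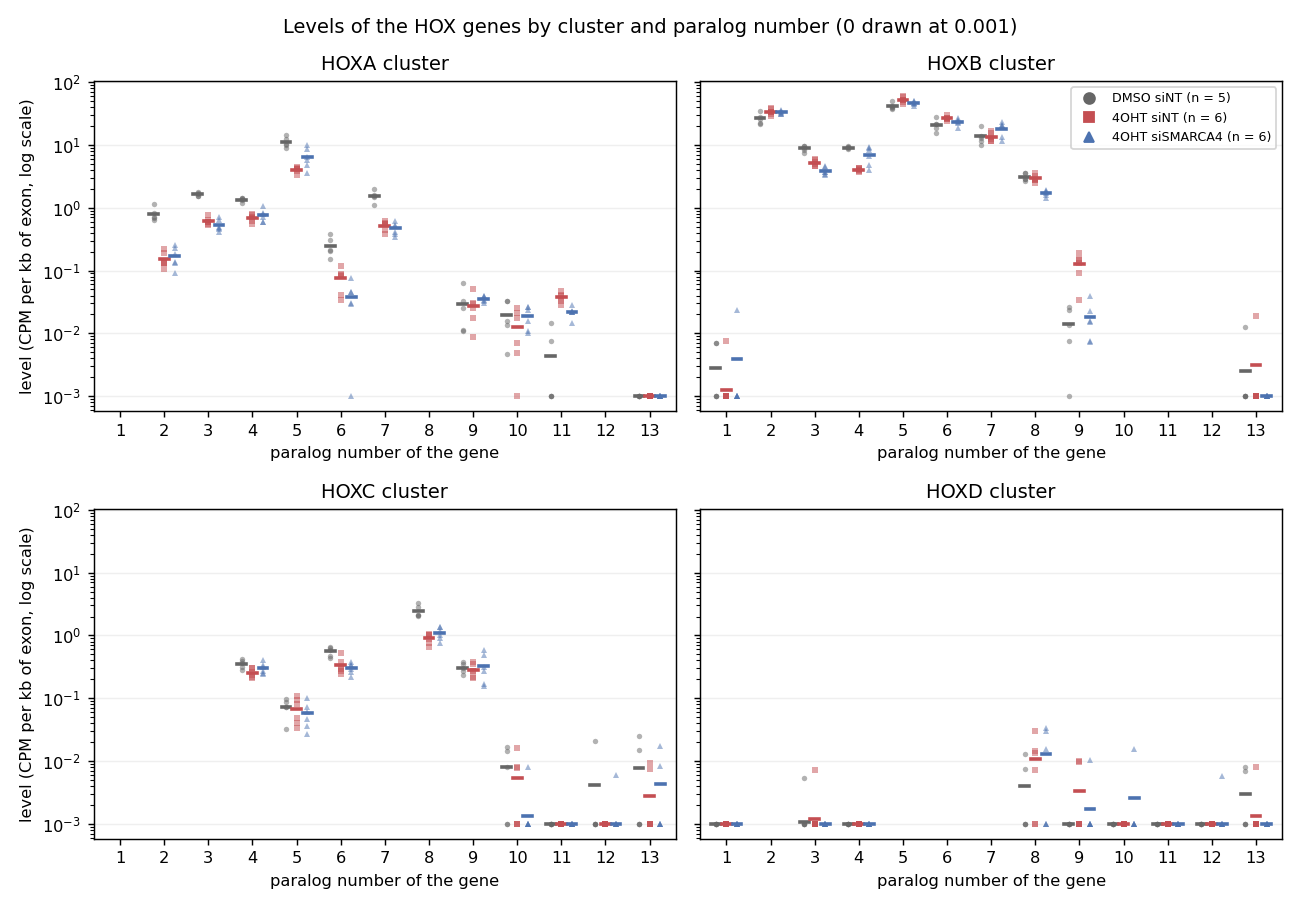
Level of the HOX genes reported (CPM per kb of exon, log axis, values of 0 drawn at 0.001) by cluster and paralog number. Small points are libraries and bars are group means (5 DMSO siNT libraries and 6 in each 4OHT group). HOXB2, HOXB5, HOXB6 and HOXB7 lie highest, HOXA5 lies among HOXB3, HOXB4 and HOXB8 or above them, the rest of HOXA and HOXC is lower, and HOXD lies near 0 throughout.

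Each cluster with transcripts ended sharply toward the high numbers. In DMSO siNT, HOXA7 was at 1.53 ± 0.301 CPM per kb and its neighbour HOXA9 at 0.0288, HOXB8 at 3.11 ± 0.441 and HOXB9 at 0.0140, and HOXC9 at 0.307 ± 0.0603 and HOXC10 at 0.00792. At the other end, HOXB1 had 7 counts over all 17 libraries although HOXB2 beside it was among the highest. In HOXC the level peaked inside the cluster, at HOXC8 with 2.45 ± 0.541 CPM per kb, and HOXC5, which shares 67.3% of its exon bases with 2 unnamed genes on its strand, had 94 counts in all. The 9 HOXD genes together had 6 counts in DMSO siNT, 12 in 4OHT siNT and 16 in 4OHT siSMARCA4, 23 of them from HOXD8, and HOXD1, HOXD4 and HOXD11 had none, as did HOXA13 and HOXC11. Where a gene had no count, 3 counts over a group would have been 0.0113 CPM in DMSO siNT, 0.00968 in 4OHT siNT and 0.00918 in 4OHT siSMARCA4, and lower levels were not detectable at this depth. These limits cover counting error only.

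Summed over a cluster, HOXA and HOXC were lower with 4OHT and the HOXB libraries overlapped (the plot of summed levels). The HOXA sum was 36.3 ± 5.08 CPM (n = 5) in DMSO siNT, 14.2 ± 1.00 (n = 6) in 4OHT siNT and 18.1 ± 5.26 (n = 6) in 4OHT siSMARCA4, and every DMSO library lay above every 4OHT library. The HOXC sum was 9.51 ± 1.51, 4.63 ± 0.376 and 5.20 ± 0.995 CPM, again with the DMSO libraries above all others. The HOXB sum was 311 ± 34.3, 325 ± 28.7 and 303 ± 14.5 CPM in the same order. HOXB therefore made up 87.1% of the summed HOX CPM in DMSO siNT, 94.5% in 4OHT siNT and 92.9% in 4OHT siSMARCA4. These sums were not divided by exon length, so the shares are of counts and not of transcripts. The sum over all HOX genes was 357 ± 35.2, 344 ± 28.8 and 326 ± 19.1 CPM. No test was made on these sums.

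**Figure D2:**
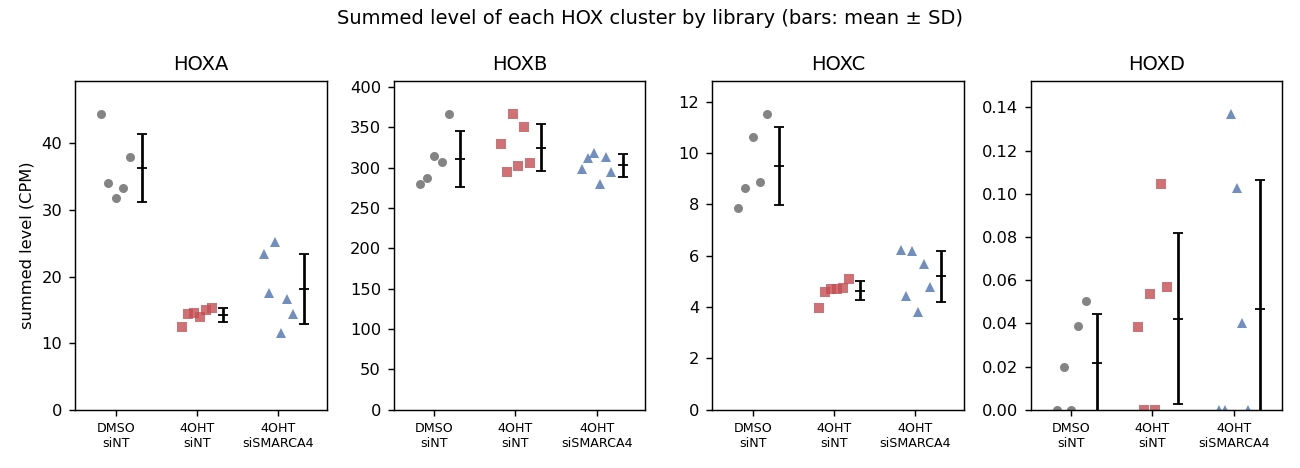
Summed level (CPM) of the genes of each HOX cluster in every library, with the mean ± SD of each group beside the points (n = 5, 6 and 6). Each panel has its own axis from 0. HOXA and HOXC separate DMSO from 4OHT libraries, HOXB does not, and the HOXD panel reaches 0.137 CPM.

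The first comparison, 4OHT siNT against DMSO siNT, sets cells made senescent by the oncogene against cells with vehicle. No sample had 4OHT without the construct, so 4OHT itself, the oncogene and senescence cannot be told apart. Of the 39 genes, 19 passed the filter on low counts (among them HOXA2 to HOXA7, HOXB2 to HOXB9, and HOXC4, HOXC6, HOXC8 and HOXC9) and 20 did not. By edgeR's quasi-likelihood test with Benjamini-Hochberg adjustment over all genes, 15 of the 19 changed at an adjusted p under 0.05, against 54.4% of all 19473 genes tested. The count was 4 higher (27.0% of all genes) and 11 lower (27.4% of all genes), the median log2 fold change was -0.74, against 0.004 over all genes tested, and the libraries of 10 of the 19 did not overlap, against 39.6% of all genes. HOXA6 passed the filter only through the DMSO siNT libraries and HOXB9 only through the 4OHT siNT libraries, so both had to differ. Without these 2, 13 of 17 were called, 3 higher and 10 lower, and 8 of 17 did not overlap.

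The genes that fell were HOXA2, HOXA3, HOXA4, HOXA5, HOXA7, HOXB3, HOXB4, HOXC4, HOXC6 and HOXC8, beside HOXA6, whose direction the filter fixed. HOXA2, which patterns the hindbrain and the branchial arches, was at 2.67, 1.69, 1.60, 1.92 and 1.49 CPM in the DMSO siNT libraries, at 0.249 to 0.505 (median 0.308) in 4OHT siNT and at 0.213 to 0.592 (median 0.377) in 4OHT siSMARCA4. All DMSO libraries were above all 4OHT libraries of either siRNA. It fell with 4OHT by 2.41 on the log2 scale (SE 0.26, adjusted p 1.94e-07 by edgeR), the largest fall among the 19 genes tested.

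HOXA7 was at 4.71, 3.80, 3.71, 2.67 and 3.57 CPM in DMSO siNT, at 0.908 to 1.496 (median 1.33) in 4OHT siNT and at 0.820 to 1.502 (median 1.12) in 4OHT siSMARCA4. Here too the DMSO libraries stood clear of both 4OHT groups. Its log2 fold change was -1.57 (SE 0.18, adjusted p 6.37e-07 by edgeR). The antisense RNA HOXA-AS3 covers 62.5% of the exon bases of HOXA7 on the other strand and was itself at -1.57. The tables were counted by strand, and whether reads of one reached the count of the other was not tested.

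HOXA5, which lung and trachea need in development, had the highest level in the cluster. It was at 25.1, 17.4, 15.2, 17.5 and 21.1 CPM in DMSO siNT, at 5.79 to 7.62 (median 7.13) in 4OHT siNT and at 6.21 to 17 (median 10.5) in 4OHT siSMARCA4. The DMSO and 4OHT siNT libraries did not overlap, and the knockdown libraries reached from one to the other. With 4OHT in siNT its log2 fold change was -1.47 (SE 0.20, adjusted p 5.09e-06 by edgeR).

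HOXA3, which pharyngeal organs such as the thymus need, was at 7.07, 7.32, 6.75, 6.68 and 7.69 CPM in DMSO siNT, at 2.25 to 3.30 (median 2.52) in 4OHT siNT and at 1.77 to 3.10 (median 2.11) in 4OHT siSMARCA4. The DMSO libraries were tightly grouped and above all others. With 4OHT it fell by 1.44 on the log2 scale (SE 0.14, adjusted p 6.21e-08 by edgeR). HOXA3 shares 9.29% of its exon bases with 2 unnamed genes on its strand.

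HOXC8, a thoracic HOX gene, was at 5.03, 5.08, 6.78, 4.90 and 7.80 CPM in DMSO siNT, at 1.61 to 2.50 (median 2.29) in 4OHT siNT and at 1.83 to 3.31 (median 2.64) in 4OHT siSMARCA4. Again no 4OHT library reached the lowest DMSO library. With 4OHT it fell by 1.45 on the log2 scale (SE 0.18, adjusted p 1.22e-06 by edgeR).

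HOXB4, known for its part in blood stem cell growth, was at 19.4, 17.3, 18.4, 18.3 and 17.7 CPM in DMSO siNT, at 7.54 to 8.67 (median 8.09) in 4OHT siNT and at 7.88 to 18.3 (median 15) in 4OHT siSMARCA4. The DMSO siNT and 4OHT siNT libraries each lay close together and far apart from one another, whereas the knockdown libraries reached from one group to the other. Its log2 fold change with 4OHT was -1.16 (SE 0.17, adjusted p 1.03e-05 by edgeR). Its neighbour HOXB3 fell less, from 65.6 ± 6.99 to 38.7 ± 4.42 CPM, a log2 fold change of -0.76.

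**Figure D3:**
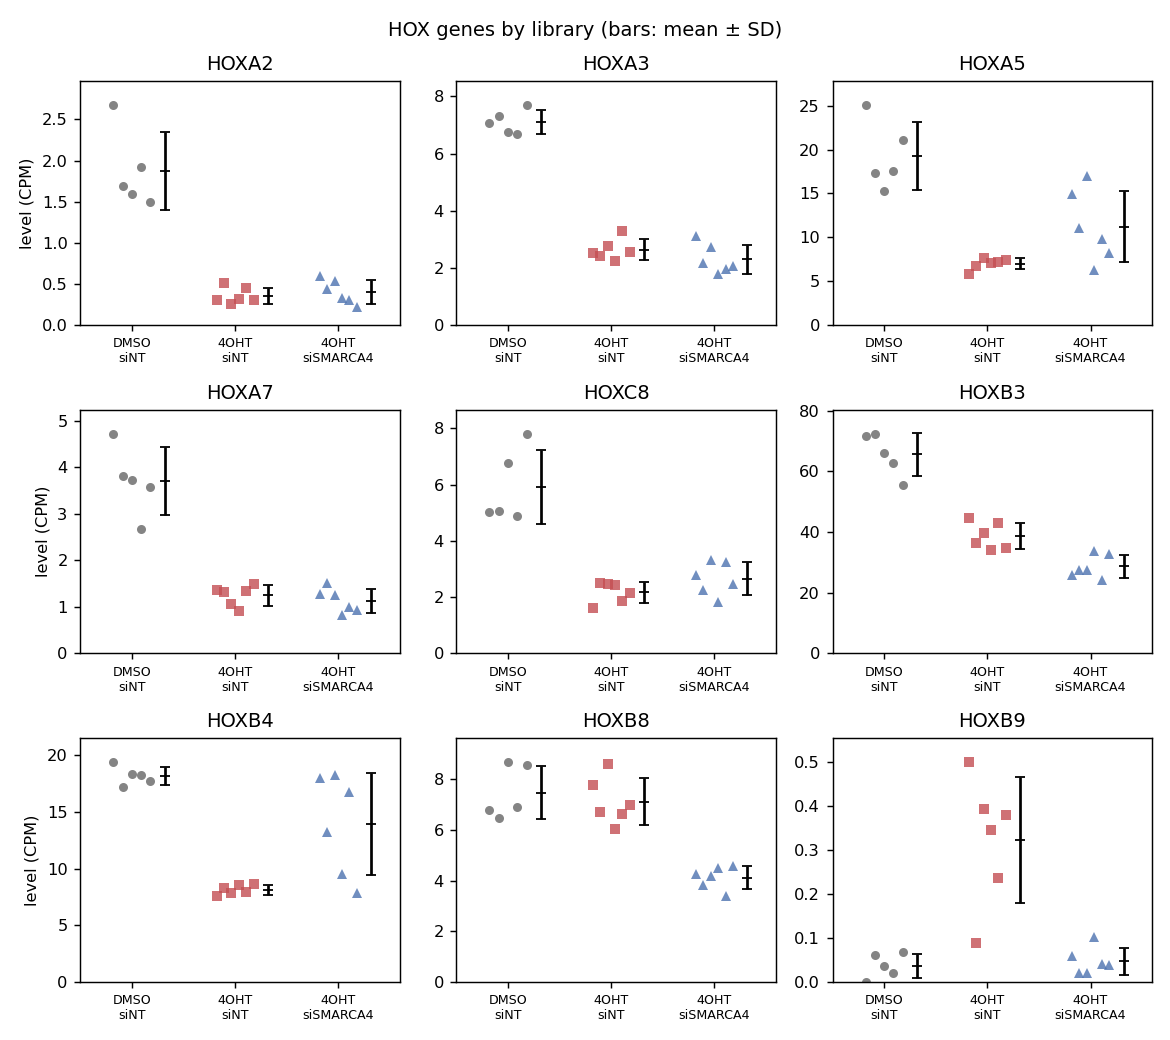
Level (CPM, linear axes from 0) of 9 HOX genes in every library of the 3 groups (5 with DMSO siNT and 6 in each 4OHT group), with mean ± SD beside the points. HOXA2, HOXA3, HOXA7 and HOXC8 are lower in both 4OHT groups, HOXA5 and HOXB4 spread upward in 4OHT siSMARCA4, HOXB8 is lower in 4OHT siSMARCA4 only, and HOXB9 is counted mainly in 4OHT siNT.

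The other falls with 4OHT were in HOXA4 (log2 fold change -0.97), HOXC6 (-0.74) and HOXC4 (-0.47). HOXA4 shares 31.3% of its exon bases with an unnamed gene on its strand, which itself fell by 1.15 on the log2 scale, and HOXC4 and HOXC6 share 17.5% and 16.1% of theirs with each other and with further genes, so reads of these genes may be split. HOXA6 had 89 counts in DMSO siNT, 30 in 4OHT siNT and 16 in 4OHT siSMARCA4, and its log2 fold change of -1.68 with 4OHT is a description, since the filter fixed its direction. HOXC4 lost its call without any 1 of 5 libraries (DMSO siNT 2-2V or 4-3VM, or 4OHT siNT 4-1VM, 2-2VM or 4-3VM, edgeR adjusted p 0.0634 to 0.0765), among VM libraries alone (0.0648), with either siRNA number alone (0.172 and 0.164) and with no filter on low counts (0.104), at log2 fold changes of -0.42 to -0.55. HOXC6 was not called among libraries of siRNA number 4 (0.0817), where its log2 fold change was -0.83.

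HOXB2, HOXB5 and HOXB6, at the levels given above, were called higher with 4OHT by log2 fold changes of 0.34, 0.33 and 0.32, and their libraries overlapped between the groups. These calls were lost when VM libraries alone were compared (0.16, 0.22 and 0.12, edgeR adjusted p 0.289, 0.113 and 0.341). With siRNA number 4 alone HOXB2 was at -0.003, HOXB5 at 0.05 and HOXB6 at 0.01 on the log2 scale, against 0.57, 0.51 and 0.52 with number 2 alone. All number 4 libraries of this comparison were VM, so the splits by tag and by number are not separate checks. HOXB2 also lost its call without DMSO siNT 2-1V (edgeR adjusted p 0.0759), DMSO siNT 2-2V (0.0728) or 4OHT siNT 2-3VM (0.0526), and HOXB6 without any 1 of 7 libraries (DMSO siNT 2-1V, 2-2V, 2-2VM or 4-2VM, or 4OHT siNT 2-1VM, 2-2VM or 2-3VM, 0.0594 to 0.153), with V or VM as a covariate (0.23, 0.0869) and with no filter (0.0661). The difference between the siRNA numbers in this comparison was called in 408 of all genes (edgeR). It was not called in these 3 genes (adjusted p 0.0642, 0.0634 and 0.096 by edgeR). HOXB7, HOXB8 and HOXC9 were not called, at -0.02, -0.07 and -0.12.

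HOXB9, at the silent edge of the HOXB cluster, had 10 counts in DMSO siNT (0, 3, 2, 1 and 4 in the libraries), 100 in 4OHT siNT (4 to 26) and 16 in 4OHT siSMARCA4 (1 to 7). The 4OHT siNT libraries lay between 0.0878 and 0.499 CPM (median 0.362) and above every DMSO library, which were at 0, 0.0597, 0.0347, 0.0194 and 0.0671 CPM. Its log2 fold change was 3.09, given as a description since the filter admitted HOXB9 through the 4OHT siNT libraries alone, at a level of 0.125 ± 0.0553 CPM per kb that stayed far below that of HOXB8 beside it, 2.96 ± 0.382.

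A further gene from the silent end, HOXA11, was not tested. It had 3 counts in DMSO siNT, 30 in 4OHT siNT and 19 in 4OHT siSMARCA4, a ratio of 8.55, scaled for depth, between the first 2 groups (95% interval 2.66 to 43.8, counting error only). The antisense RNA HOXA11-AS covers 27.2% of its exon bases on the other strand and had 0 counts in DMSO siNT, 15 in 4OHT siNT and 3 in 4OHT siSMARCA4, which is 4.28-fold a floor of 3 counts over the DMSO group, and the 95% lower limit of the ratio itself was 3.07 (counting error only). The neighbours HOXA9 (24, 25 and 35 counts) and HOXA10 (20, 14 and 23 counts) had ratios of 0.891 (95% interval 0.488 to 1.63) and 0.599 (0.280 to 1.25). HOXA11, HOXA11-AS, HOXA9 and HOXA10 were singled out after their values were seen. The rest of the genes not tested had at most 33 counts in any group.

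Log2 fold changes of genes of the same number are set side by side here. With 4OHT, number 2 was at -2.41 in HOXA and 0.34 in HOXB, number 5 at -1.47 and 0.33, number 6 at 0.32 in HOXB and -0.74 in HOXC, and number 7 at -1.57 in HOXA and -0.02 in HOXB. Number 8 was at -0.07 in HOXB and -1.45 in HOXC, and number 9 at -0.12 in HOXC. HOXA6 and HOXB9 are left out of these pairs because the filter fixed their direction. Numbers 3 and 4 were lower in each cluster where they were tested, at -1.44 and -0.76 for HOXA3 and HOXB3, and at -0.97, -1.16 and -0.47 for HOXA4, HOXB4 and HOXC4 (log2 fold changes in the same libraries). The differences between paralogs were not tested.

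**Figure D4:**
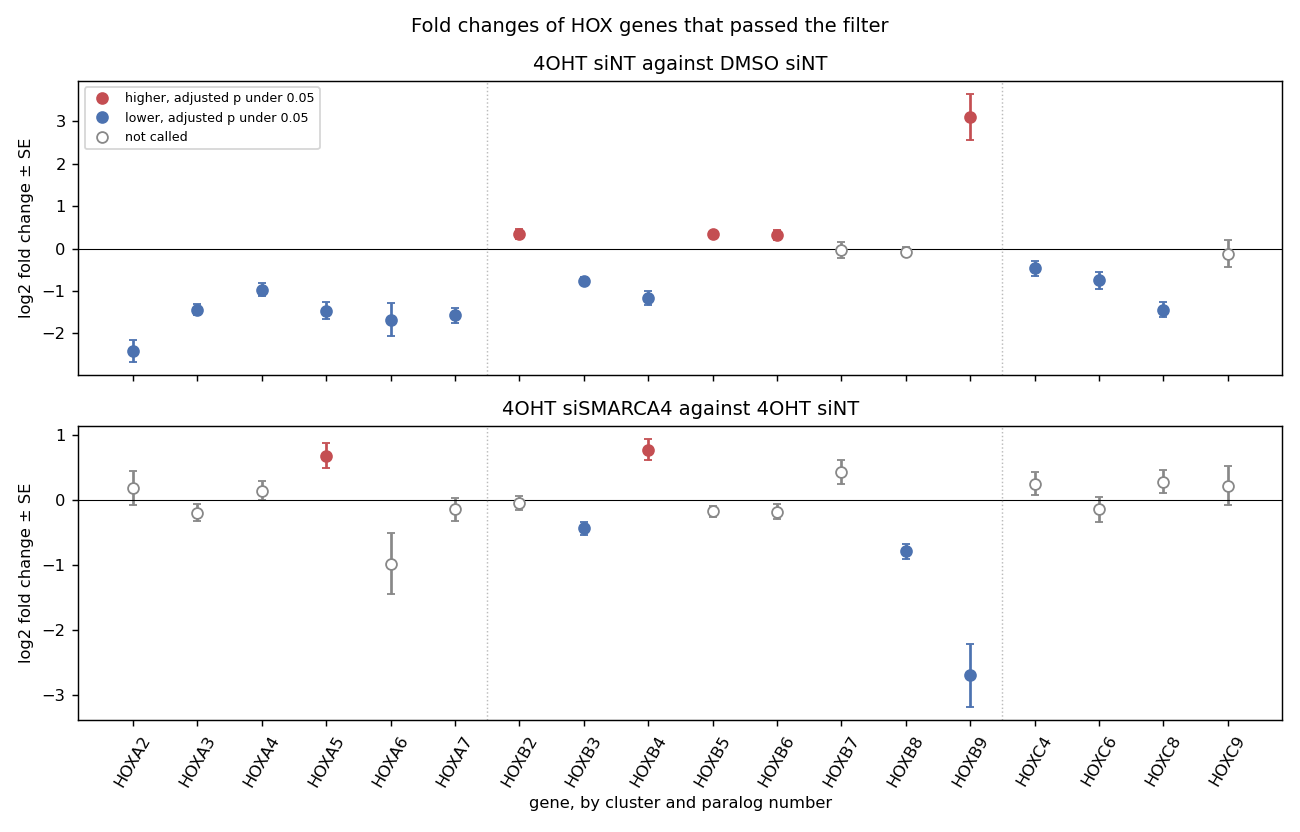
Log2 fold change ± SE (edgeR) of HOX genes that passed the filter, by cluster and paralog number, for 4OHT siNT (n = 6) against DMSO siNT (n = 5) and for 4OHT siSMARCA4 (n = 6) against 4OHT siNT (n = 6). Filled points have an adjusted p under 0.05 over all genes. In the upper panel HOXA2, HOXA3, HOXA4, HOXA5 and HOXA7 lie between -2.41 and -0.97, and in the lower panel HOXA5 and HOXB4 are higher and HOXB3 and HOXB8 lower. The filter fixed the direction of HOXA6 (-1.68) and HOXB9 (3.09) in the upper panel and of HOXB9 (-2.70) in the lower.

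The second comparison, 4OHT siSMARCA4 against 4OHT siNT, asks what SMARCA4 contributes in cells made senescent. It called 5 of the 19 HOX genes, close to the 24.2% of all genes called: HOXA5 and HOXB4 higher (10.4% of all genes were higher) and HOXB3, HOXB8 and HOXB9 lower (13.8% of all genes were lower). The median log2 fold change was -0.09, against -0.02 over all genes, and 2 of 19 genes had no overlap between the groups, against 12.0% of all genes. Without HOXA6 and HOXB9, 4 of 17 were called. This comparison and the first share the 4OHT siNT libraries.

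HOXB8 was the clearest of the 5. It was at 6.77, 6.47, 8.67, 6.90 and 8.58 CPM in DMSO siNT, at 6.05 to 8.60 (median 6.83) in 4OHT siNT and at 3.38 to 4.58 (median 4.21) in 4OHT siSMARCA4. Every knockdown library lay below every other library, and the siNT groups overlapped. It fell with the knockdown by 0.79 on the log2 scale (SE 0.11, adjusted p 0.000103 by edgeR). Its log2 fold change was -0.87 with siRNA number 2 alone and -0.67 with number 4 alone (edgeR adjusted p 0.00245 and 0.0505).

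HOXB3 was at 33.9 to 44.5 CPM (median 38.1) in 4OHT siNT and at 24.3 to 33.8 (median 27.5) in 4OHT siSMARCA4, with no overlap. It fell by 0.43 on the log2 scale (SE 0.10, adjusted p 0.00363 by edgeR). It was thus lower in each step, with 71.7, 72.3, 65.9, 62.6 and 55.4 CPM in the DMSO siNT libraries. With siRNA number 4 alone its log2 fold change was -0.22 (edgeR adjusted p 0.357). HOXB9 had a log2 fold change of -2.70 with the knockdown, again a description since only the 4OHT siNT libraries brought it past the filter, and the groups touched only through 4OHT siNT 4-1VM, at 0.0878 CPM, and 4OHT siSMARCA4 4-2V, at 0.102 CPM.

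HOXB4 was higher with the knockdown, at a log2 fold change of 0.78 (SE 0.16, adjusted p 0.00228 by edgeR) and HOXA5 by 0.68 (SE 0.19, 0.0154), and for both the groups overlapped. In HOXB4 the knockdown libraries divided by tag: the VM libraries were at 18, 18.3 and 16.8 CPM, within 17.3 to 19.4 of DMSO siNT or just below, and the V libraries at 13.2, 9.51 and 7.88 CPM. Against 4OHT siNT, which held VM libraries alone, the 3 VM knockdown libraries gave 1.13 (edgeR adjusted p 1.04e-06). In HOXA5 the siRNA number 2 libraries were at 14.9, 11.1 and 17 CPM and those of number 4 at 6.21, 9.82 and 8.19, and the log2 fold change was 1.103 with number 2 alone (edgeR adjusted p 0.00559) and 0.18 with number 4 alone (0.558). HOXB4 was at 1.13 and 0.41 for the same split (0.00031 and 0.314). Since tag and siRNA number were partly tied in these libraries, a division by one cannot be fully told apart from a division by the other.

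None of the 5 calls was kept with siRNA number 4 alone, in which 3 libraries stood against 3 and 1075 of all genes were called in place of 4703. HOXB9 was at -2.08 there (edgeR adjusted p 0.0916). The difference between the siRNA numbers was itself tested, as an interaction, and called 207 of all genes but none of the 19 HOX genes (edgeR). This interaction also holds any difference between siNT libraries of number 2 and number 4. At an unadjusted p under 0.05 it held HOXA2, HOXA5, HOXB3, HOXB4 and HOXC9, with adjusted p of 0.153 to 0.320. HOXB7 was at 0.43 in the knockdown comparison (edgeR adjusted p 0.0892) and was called higher with siRNA number 2 alone (0.46, 0.0223), when VM libraries alone were used (0.69, 0.0056) and without 4OHT siSMARCA4 4-2V or 4-3V (0.0496 and 0.0292). VM libraries alone also gave a call for HOXC8, at 0.54 in place of 0.28 (edgeR adjusted p 0.0396 and 0.245). The other 12 genes had log2 fold changes between -0.97 for HOXA6 and 0.25 for HOXC4 and were not called, although HOXB5 was called lower with siRNA number 2 alone (-0.24, edgeR adjusted p 0.0365).

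The third comparison, 4OHT siSMARCA4 against DMSO siNT, shares libraries with each of the others and gives where the knockdown cells stood relative to the start. It called 11 of the 19, against 55.1% of all genes, with 1 higher (26.5% of all genes) and 10 lower (28.6% of all genes), and 9 of 19 did not overlap, against 36.3%. Without HOXA6 and HOXB9, 10 of 17 were called, 1 higher and 9 lower, and 8 of 17 did not overlap. HOXA2 (-2.23), HOXA3 (-1.63), HOXA7 (-1.71) and HOXC8 (-1.16) were below DMSO, and HOXA4 was at -0.82 and HOXC6 at -0.88. HOXA6, which only the DMSO siNT libraries brought past the filter, was at -2.65. HOXA5 stood at -0.78 (edgeR adjusted p 0.00241), which was not called with siRNA number 2 alone (0.108) or VM libraries alone (0.117). HOXB4 stood at -0.39 (0.0579) and was called lower without any 1 of the 3 VM knockdown libraries (0.0225 to 0.0393), and HOXB9 stood at 0.40 (0.636). HOXB3 reached -1.20 and HOXB8 -0.86. HOXB2 was higher at 0.30 (0.0274), a call that was lost without any 1 of 6 libraries (DMSO siNT 2-1V, 2-2V, 2-2VM or 4-2VM, or 4OHT siSMARCA4 2-1VM or 4-3V, 0.0523 to 0.138). Without DMSO siNT 4-3VM, HOXB5, HOXB6 and HOXB7 were called higher as well (0.24, 0.27 and 0.59), as they were with siRNA number 2 alone (0.27, 0.43 and 0.78), HOXB7 also without 4OHT siSMARCA4 4-3V (0.50).

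Other RNAs of the clusters were examined next. Of 18 named noncoding RNAs of the HOX clusters in the tables, 5 were tested, and with 4OHT 4 were lower (27.4% of all genes) and none was higher (27.0% of all genes). HOXA-AS2, which runs against HOXA3 and HOXA4, was at 2.79 ± 0.561 CPM in DMSO siNT, 0.845 ± 0.255 in 4OHT siNT and 0.619 ± 0.387 in 4OHT siSMARCA4, a log2 fold change of -1.73 with 4OHT (edgeR adjusted p 8.7e-05). HOXA-AS3, opposite exons of HOXA6 and HOXA7, fell by 1.57. It was at 0.310 to 0.677 CPM in DMSO siNT, 0.0712 to 0.254 in 4OHT siNT and 0.0604 to 0.251 in 4OHT siSMARCA4. Whether HOXA-AS3 passed the filter through DMSO libraries alone was not checked, so the filter may have fixed its direction. HOXB-AS3, opposite exons of HOXB6, was at 27.4 ± 3.46, 19.2 ± 1.93 and 12.1 ± 1.64 CPM, lower with 4OHT (-0.52, edgeR adjusted p 0.000354) and lower again with the knockdown (-0.66, 0.000189), with no overlap in either comparison. It was the only RNA of the 5 called with the knockdown. Unlike the HOX calls, calls of list genes here and below were not checked by siRNA number, tag or leaving out libraries. HOXB-AS1 was at -0.30 with 4OHT, and HOTAIRM1, at the head end of HOXA, at -0.39 (0.111). The list holds RNAs counted also among the 61 genes other than HOX genes between the cluster ends, of which 12 were tested. With 4OHT 6 of these were lower (27.4% of all genes) and none higher (27.0%), where 54.4% of all genes were called in either direction. With the knockdown 1 was lower (13.8% of all genes) and none higher (10.4%), where 24.2% were called in either direction.

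Genes beside the clusters were examined as well. Of 17 genes listed as neighbours, 10 were tested, all 10 outside the cluster ends. PRAC1 and PRAC2, which were on the list and not tested, lie between the ends of HOXB and are among the 61 genes above. With 4OHT 6 were lower (27.4% of all genes) and CALCOCO2 (0.56) was higher (27.0%), and the largest fall was that of LNPK beside HOXD (-0.86, from 70.5 ± 8.75 to 38.9 ± 5.27 CPM). With the knockdown SKAP2 (0.33), LNPK (0.31) and MTX2 (0.21) were higher (10.4% of all genes) and CALCOCO1 (-0.51) was lower (13.8%). EVX1 and EVX2, the homeobox genes at the high-number ends of HOXA and HOXD, did not pass the filter.

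PBX, MEIS and PKNOX proteins are homeodomain partners that bind DNA together with HOX proteins, and all 9 genes of the list were tested. With 4OHT 1 rose and 4 fell, a share near the 54.4% of all genes called, and among the 4 were MEIS2 from 33.9 ± 4.54 to 13.3 ± 1.71 CPM (-1.35 on the log2 scale, adjusted p 1.66e-09 by edgeR), MEIS1 from 40.2 ± 4.49 to 20.5 ± 1.09 (-0.97) and PBX4 (-1.38), whereas MEIS3 was higher (0.45). With the knockdown 4 of the 9 were called, against 24.2% of all genes. PBX4 was higher (1.41, edgeR adjusted p 0.00498), with no overlap, from 0.208 ± 0.139 to 0.557 ± 0.107 CPM, and MEIS2 (-0.49), PKNOX2 (-0.79) and MEIS3 (-0.23) were lower. PBX2, PBX3 and PKNOX1 passed in neither.

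Of 27 Polycomb, Trithorax and insulator genes, all were tested, and with 4OHT 8 were higher and 8 lower, a share near that of all genes (27.0% higher and 27.4% lower). KDM6B, a demethylase of the Polycomb mark H3K27me3, rose from 19.2 ± 3.52 to 70.5 ± 9.07 CPM (1.87 on the log2 scale, adjusted p 2.79e-09 by edgeR), and EZH2, the enzyme that sets this mark, fell from 13.2 ± 1.90 to 5.02 ± 0.316 CPM (-1.40). JARID2, a cofactor of the same complex, rose by 1.27. With the knockdown 7 of the 27 were called, near the 24.2% of all genes, 3 of them higher (RNF2, SUZ12 and RAD21, between 0.21 and 0.35) and 4 lower (KMT2B, KDM6B, MEN1 and CBX6, between -0.41 and -0.21). No measurement of histone marks or binding at the HOX genes was part of these data.

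The tables also list each annotated repeat locus, which gives a feature that the choice of genes did not use. Transposon loci covered 1.42% of the bases between the first and the last HOXA gene, 1.68% in HOXC and 6.25% in HOXD, against 51.7%, 37.1% and 49.3% in flanks as long as the cluster on each side. The HOXB cluster held 30.8%, against 49.4% in its flanks. That share lay almost wholly between HOXB9 and HOXB13, where it was 57.9%, and was 4.74% from HOXB1 to HOXB9. The shares are a count of annotation and not of expression. The loci inside the clusters, 10 in HOXA, 253 in HOXB, 10 in HOXC and 24 in HOXD, gave few counts: in HOXA 39 in DMSO siNT, 18 in 4OHT siNT and 20 in 4OHT siSMARCA4, in HOXB 41, 39 and 41, in HOXC 8, 3 and 11, and in HOXD 1, 1 and 4.

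**Figure D5:**
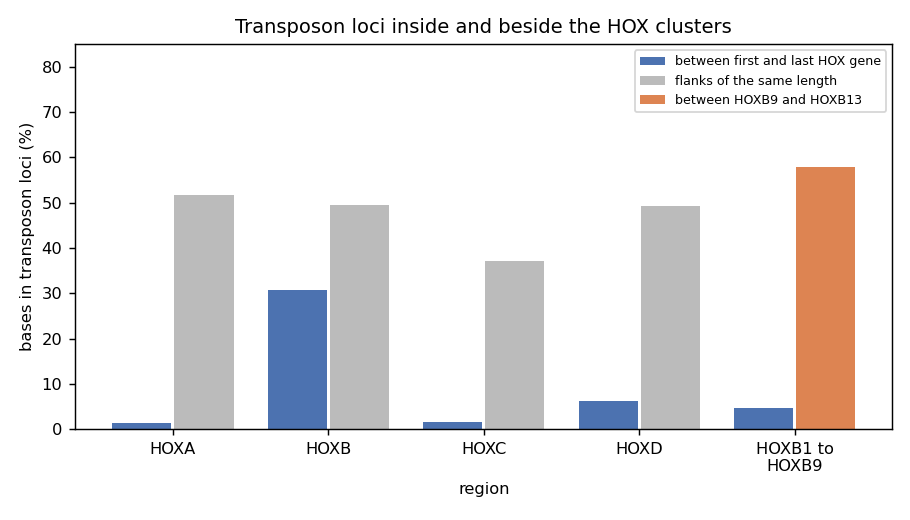
Share of bases (%) in transposon loci between the first and last gene of each HOX cluster and in flanks on both sides, each as long as the cluster. The last pair of bars divides HOXB into HOXB1 to HOXB9 (4.74%) and the stretch between HOXB9 and HOXB13 (57.9%). HOXA, HOXC and HOXD lie below 7%, and all flanks above 37%.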

How the data were processed

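RNA was poly(A)-selected and strand-specific libraries of 17 samples were sequenced in pairs. The authors trimmed reads with Cutadapt 4.7, aligned them to GRCh38 with HISAT2 2.2.1 and deposited 1 table of expected counts per library, made with TElocal (reverse-stranded, multi mode), which shares reads that fit several positions by maximum likelihood. Values are whole numbers and not normalised, for 62754 genes and for repeat loci. The methods name Ensembl release 100, but the tables hold all 62700 gene IDs of GENCODE 44, whose symbols, positions and exons were used. Genes and repeat subfamilies that passed edgeR's filterByExpr (minimum count 10, minimum total 15 on 3 groups, 19473 genes and 1026 subfamilies) were scaled by TMM (factors 0.949 to 1.08). A quasi-likelihood model (edgeR 4.0.16, R 4.3.3) took each group as a term over the 17 libraries, so that all groups share an estimate of spread, and tested on simulated data with known changes. A call is a Benjamini-Hochberg adjusted p under 0.05 over genes. Levels are TMM-scaled CPM, and per kb of exon union between genes. Library values were given for calls in the first 2 comparisons with an absolute log2 fold change and group mean CPM of 1 or more. DMSO siNT libraries were given singly, as were knockdown libraries of HOXA5 and HOXB4, and the others mostly by range and median. HOXB3, HOXB8 and HOXB9 were added after their values were seen, as were list genes with smaller changes. The genes, lists and tests were chosen with earlier results of these data known. Alternatives were DESeq2 1.42.0, its size factors, no filter, the contrast's groups alone, subsets and covariates by siRNA number or V and VM, replicate blocks and leaving out each library. No alternative was read for the calls of list genes. The deposited tables pair no library across groups: deviations of libraries that share a label correlated between -0.45 and 0.30 between groups. Libraries with different labels reached further. DMSO siNT 4-3VM correlated at 0.606 with 4OHT siNT 2-2VM and at -0.526 with 4OHT siNT 4-2VM. Whether an unlabelled batch ran across the groups was not tested. No library stood apart from its group in 57 checks of HOX levels, and replicates differed beyond sampling noise. This was read over all genes as a chi-square per gene for each pair of replicates. DMSO siNT 4-3VM was at 75.8 to 145.9 against the other DMSO libraries, whose own pairs were at 19.5 to 76.5. The pair 4OHT siNT 2-2VM and 2-3VM was at 4.68, and the other pairs of that group were at 13.3 to 81.3. Promoters came from RefSeq (GRCh38.p14). Python 3.11.15 with pandas 2.3.3, scipy 1.17.1 and matplotlib 3.10.9 was used for the rest. The lists named HOXA13-AS, HOXB-AS5, MIR10AHG and MIR196B-AS1 also, which matched no row. Values of some genes are not reported here, although counts and sums over genes include them.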

Additional observations from a re-analysis of the deposited data

How the results depend on the processing

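Of 718 values that the alternatives gave for the 31 calls of HOX genes over the 3 comparisons, 663 kept direction and call, 54 lost the call and 1 reversed (HOXB2 with 4OHT, -0.0034 with siRNA number 4 alone). The 663 include HOXA6 with 4OHT (22 of 23 values kept) and in the third comparison (23 of 23). They also include HOXB9 with 4OHT (23 of 23) and with the knockdown (23 of 24). The filter on low counts fixed the direction of these calls of HOXA6 and HOXB9, so the direction they kept is no test of it. Levels below 3 counts over a group could not be read at this depth, and the cause of the shifts that follow was not tested.

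With siRNA number 4 alone, the knockdown comparison called 0 HOX genes (0 higher, 0 lower) and 1075 of all genes in place of 4703, the 4OHT comparison 1 HOX gene higher in place of 4, and the third comparison 0 higher in place of 1. With number 2 alone the third comparison called 4 higher. With VM libraries alone there were 4 higher with the knockdown in place of 2, 1 with 4OHT and 0 in the third comparison, and with V or VM as a covariate 4 with the knockdown and 2 in the third. The third had 2 higher with no filter on low counts and 0 with its own groups alone. The labels do not pair libraries, and with the whole label as a replicate block there were 4 HOX genes higher with the knockdown and 3045 of all genes called, 1 higher with 4OHT, and in the third comparison 6 called, 6 lower, 0 higher and 6329 of all genes. Not called under this block in the third comparison were HOXC8 (-0.72, edgeR adjusted p 0.0567), HOXA4 (-0.60, 0.113), HOXC6 (-0.76, 0.120), HOXA5 (-0.38, 0.272) and HOXB2 (0.17, 0.489), and with 4OHT HOXA6 (-1.66, 0.0808), HOXB2 (0.25, 0.177), HOXB5 (0.27, 0.101), HOXB6 (0.18, 0.313) and HOXC4 (-0.55, 0.154). Leaving out 1 library gave 12 to 15 HOX genes called with 4OHT (2 to 4 higher), 5 to 6 with the knockdown and 10 to 14 in the third (0 to 4 higher). The transposon share of HOXB was 4.743% from HOXB1 to HOXB9, a choice made after seeing the data, against 30.76%.

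Direction changed in genes that were not called. In the knockdown comparison HOXC6 (-0.14) was at 0.0078 with number 2 alone, 0.0741 with VM alone, 0.0661 with the covariate and 0.0658 with the block, HOXA7 at 0.15 with number 2 alone, and HOXB2 at 0.04 with the covariate. With number 4 alone HOXA2 was at -0.40, HOXA4 at -0.0615, HOXB2 at 0.11 and HOXC9 at -0.40. With 4OHT and number 2 alone, HOXB7 was at 0.32, HOXB8 at 0.0341 and HOXC9 at 0.0185. In the third comparison HOXB9 was at -0.0664 with VM alone, and with number 4 alone HOXB5 was at -0.0132, HOXB6 at -0.23, HOXB7 at -0.0682 and HOXC9 at -0.75. HOXC9 was at -0.07 with the tag number as block and -0.35 with the whole label. Leaving out 1 library gave -0.2191 to 0.0302 for HOXC6 and -0.0225 to 0.3727 for HOXC9 with the knockdown, -0.1487 to 0.1597 for HOXB7 with 4OHT, and -0.0565 to 0.7515 for HOXB9 and -0.1659 to 0.2412 for HOXC9 in the third.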

Other observations

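Other homeobox genes of fibroblasts were examined beside the HOX genes. Of 19 listed, 11 were tested, and 8 were lower (27.4% of all genes) and 2 higher (27.0% of all genes) with 4OHT, with a median log2 fold change of -1.09. PRRX2, a mesenchymal homeobox gene, was at 22.8 ± 4.28 CPM (SD, n = 5) in DMSO siNT, 1.99 ± 0.560 (n = 6) in 4OHT siNT and 3.52 ± 1.21 (n = 6) in 4OHT siSMARCA4. It fell by 3.52 on the log2 scale with 4OHT (edgeR adjusted p 5.33e-10) and was higher with the knockdown by 0.82 (0.0135). DLX2 fell by 1.28 and PRRX1 by 1.25, and MSX1 (0.62) and MSX2 (0.94) rose. SIX4 was not called with 4OHT (-0.14) and was lower with the knockdown (-0.74, edgeR adjusted p 6.9e-05), with no overlap.

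Retinoic acid is a known inducer of low-numbered HOX genes. Of 13 retinoid pathway genes, 8 were tested, and 5 were higher (27.0% of all genes) and 2 lower (27.4% of all genes) with 4OHT. The 5 include CYP26B1 and RARB, which passed the filter through the 4OHT groups, where they are high, so this count is no test of the list. CYP26B1, which degrades retinoic acid, was at 0.137 ± 0.0818 CPM in DMSO siNT, 7.70 ± 2.26 in 4OHT siNT and 4.71 ± 2.56 in 4OHT siSMARCA4. Its log2 fold change of 5.78 with 4OHT is a description, since the DMSO siNT libraries alone would not have passed the filter. The receptor gene RARB was higher by 2.90, also a description, since it was at 0.0175 to 0.0597 CPM in DMSO siNT and only 4OHT libraries brought it past the filter. ALDH1A2, a retinoic acid synthesis enzyme, was higher by 1.49. RARG (-0.90) and RXRB (-0.31) were lower. With the knockdown ALDH1A3, also a synthesis enzyme, was the only gene of the 8 called (24.2% of all genes), from 13.56 ± 1.37 to 32.5 ± 7.30 CPM (1.26, edgeR adjusted p 0.000522).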
